A study of Mus musculus with 6 samples.

Results

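S100a1, S100a4, S100a6, S100a10, S100a11, S100a13, S100a14 and S100a16 are the S100 genes described here, chosen by name as 8 of the 18512 entries of a gene count table, with S100a8 and S100a9 left out. The table comes from a mouse line of mammary gland epithelium, NMuMG, whose RNA was selected with oligo-dT and sequenced. Control cells received DMSO, the vehicle. A second group received TGF-β at 5 ng/ml, a growth factor that drives these cells through an epithelial-mesenchymal transition. The third received TGF-β at 5 ng/ml together with 2APB at 50 uM. This compound is used as an inhibitor of calcium entry that follows the emptying of internal stores. The study proposes that 2APB blocks the channels ORAI1 and ORAI2 but raises calcium entry through ORAI3. All cells were starved of serum before treatment, for which the study's results text gives 24 h. Its methods place 2APB before TGF-β. Each group had 2 replicates, which the study calls biological, so that 6 libraries were compared. The design had no group with 2APB alone. The comparisons asked how the RNA levels of these calcium-binding proteins differed after TGF-β, and whether they differed again when 2APB was present.

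S100 proteins are small proteins with a pair of EF-hands, the helix-loop-helix fold that holds a calcium ion, and most work as dimers. Binding of calcium turns a helix outward and opens a surface through which the dimer grips a target, so the family carries calcium signals to annexins, the cytoskeleton, membrane proteins and secreted growth factors. Several members are abundant in epithelia, and some are also secreted and act outside the cell. Most of the genes lie side by side in a cluster.

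The counts summed to between 71840570 and 79473182 per library, and every value was even. These sums exceed the average number of reads per sample that the study gives. A count therefore need not stand for a single read, and the reason was not found. The counts were scaled with edgeR's TMM factors (0.972 to 1.03) to normalized counts, that is, counts as they would be in a library of mean size. Genes that averaged 20 normalized counts or more, 13353 in all, were tested with edgeR's quasi-likelihood test, and a Benjamini-Hochberg FDR of 0.05 or less over all of them is called a change. Of the 8 S100 genes, 7 passed that minimum, and S100a14 did not. The epithelial markers Krt8, Krt18 and Cdh1 averaged 243539, 167349 and 90890 normalized counts in DMSO, while Epcam averaged 145, Cldn7 averaged 3.98 and Cldn3 had no entry. Summed normalized counts of the 7 epithelial markers in the table ran from 531543 in DMSO to 1382360 in TGF-β+2APB, and those of 7 mesenchymal markers from 83911 to 148378. The epithelial sum was carried by Krt8 and Krt18, and the mesenchymal sum by Vim. After TGF-β 3 of the 4 tested mesenchymal markers rose and 0 fell. Pdgfrb averaged 11.1 normalized counts in DMSO and 572 in TGF-β, and Col1a1 62.7 and 1675. Thy1, Col1a2 and Dcn were below the minimum, and Lum had no entry. With TGF-β+2APB 3 of the 6 tested epithelial markers rose against DMSO and 3 fell, after TGF-β 2 rose and 3 fell, and Cdh1 averaged 38059 and Krt19 2564 normalized counts in TGF-β+2APB against 90890 and 43625 in DMSO. Leukocyte markers (6 genes) set one library apart: they summed to 37457 in TGF-β+2APB replicate 2 and to 3900 in TGF-β+2APB replicate 1, with 17353 and 21239 in DMSO and 9548 and 13721 in TGF-β. Hepatocyte markers (6 genes) summed to 71590 and 80053 in DMSO and to at most 730 in the other libraries. Sums of endothelial (5), adipocyte (2), muscle (2) and Schwann cell or melanocyte (4) markers lay between 2.08 and 628 in every library. Single genes in these lists changed: Sox10 averaged 0 in DMSO, 37.4 in TGF-β and 133 in TGF-β+2APB, and Acta1 averaged 9.05, 131 and 79.1. The last list also holds S100b, which fell and is described below. Results that involve TGF-β+2APB replicate 2 and move with the leukocyte markers are given with and without it.

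The 8 genes together took 0.204% to 0.255% of all counts, and S100a6 alone made up most of that. To compare genes with each other, levels were also expressed as RPKM, that is, counts scaled to library depth and divided by the median length of the annotated coding transcripts in kilobases. In DMSO S100a6, known as calcyclin, stood highest at 2847 RPKM ± 61.0 (SD, n = 2). S100a11, also called calgizzarin, followed at 875 RPKM ± 21.6, and S100a10, the p11 partner of annexin A2, at 215 RPKM ± 2.62. The middle of the order was held by S100a1 at 105 RPKM ± 3.34, S100a16 at 63.3 RPKM ± 1.84 and S100a13 at 41.6 RPKM ± 1.43. S100a4, a protein of motile cells, reached 11.3 RPKM ± 1.02, and S100a14 only 0.389 RPKM. These steps between neighbours in DMSO were larger than the spread of the replicates. In TGF-β the order was the same, but S100a1 and S100a16, at 58.8 ± 9.68 and 53.5 ± 10.7 RPKM, differed by less than their spread. In TGF-β+2APB the same pair stood at 55.7 ± 0.797 and 55.0 ± 2.22 RPKM, again within the spread, and S100a4 (26.5 ± 18.4 RPKM) lay above S100a13 (14.8 ± 1.11 RPKM) with an SD larger than the difference. Dividing by all annotated exon bases instead put S100a13 above S100a16 in DMSO and S100a11 above S100a6 in TGF-β, so these orders depend on the length used.

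**Figure D1:**
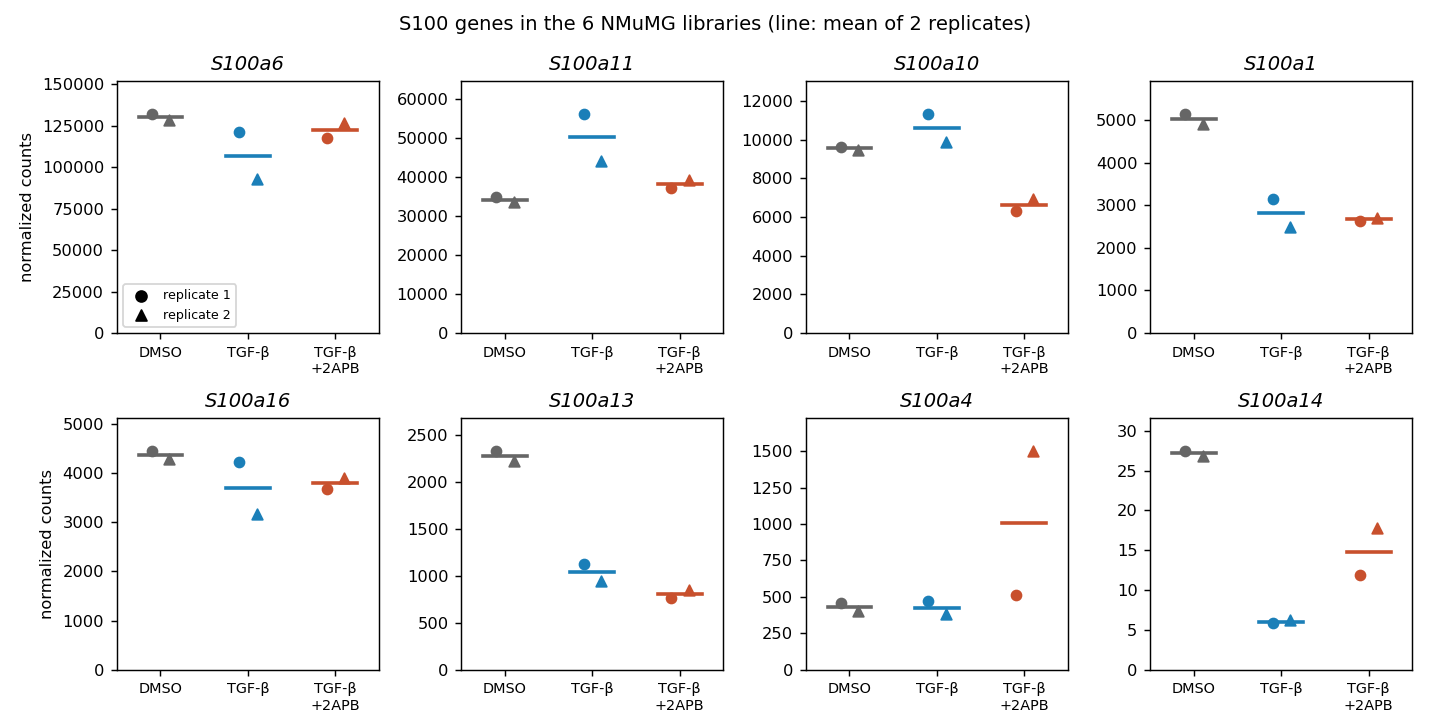
Normalized counts of the 8 S100 genes (vertical axes, each from 0 and with its own scale) in DMSO, TGF-β and TGF-β+2APB; circles are replicate 1, triangles replicate 2 and lines the mean of 2 replicates. S100a1 and S100a13 lie lower in both treated groups than in DMSO, S100a11 is highest in TGF-β, S100a10 is lowest in TGF-β+2APB, and the high S100a4 mean in TGF-β+2APB comes from replicate 2 at 1503 normalized counts.

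After TGF-β, 1 of the 7 tested S100 genes rose (S100a11) and 2 fell (S100a1 and S100a13). This is 3 of 7, where 41.5% of all genes tested changed, 21.8% upward and 19.7% downward, so the share of changed genes was near the background. With TGF-β+2APB, 3 fell against DMSO (S100a1, S100a13 and S100a10) and 0 rose by edgeR's quasi-likelihood test, beside 52.8% of all genes tested, 27.2% downward and 25.6% upward. Of the others, S100a4 alone had an unadjusted p under 0.05 with a higher mean, and DESeq2 called it higher. Between TGF-β+2APB and TGF-β, S100a10 was the 1 of 7 that changed, and it was lower with 2APB, beside 17.5% of all genes tested, 10.9% downward and 6.58% upward. The median log2 fold change of the 7 genes was -0.24, -0.20 and -0.08 in the 3 comparisons, against -0.01, -0.0033 and -0.0037 over all genes tested. These comparisons share libraries, so their counts do not count independent evidence. RNA from whole cultures cannot separate fewer cells that express a gene from less of its RNA per cell.

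**Figure D2:**
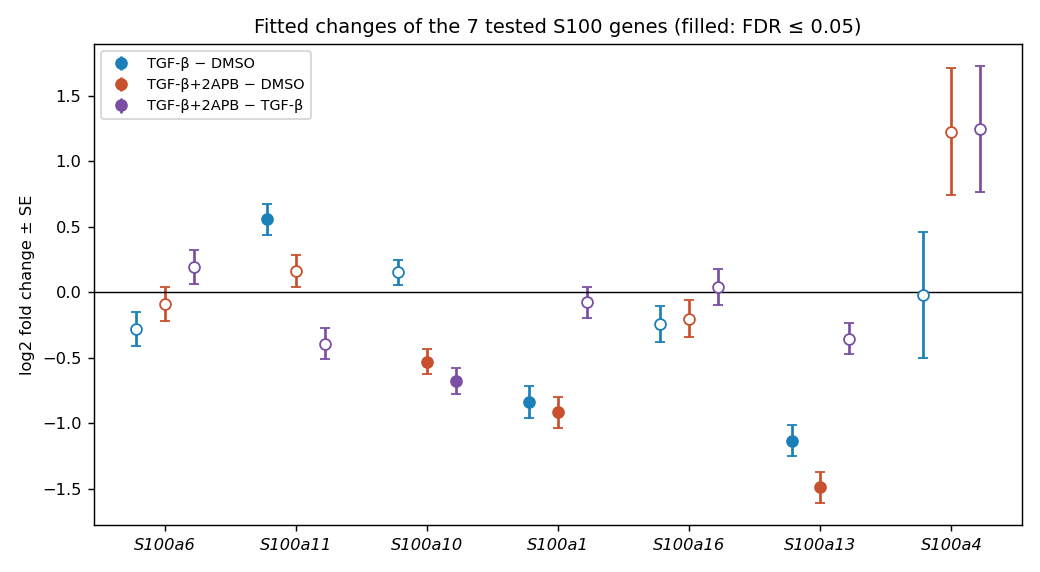
Fitted log2 fold changes (vertical axis) of the 7 tested S100 genes in the 3 comparisons, with bars of 1 standard error; filled points have an FDR of 0.05 or less in edgeR's quasi-likelihood test. Falls of S100a1 and S100a13 against DMSO are filled in both treated groups, the rise of S100a11 only for TGF-β against DMSO, the falls of S100a10 in both comparisons with 2APB, and S100a4 has the widest bars.

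S100a1 in muscle regulates calcium release and uptake by internal stores, and S100a13 helps growth factors leave the cell without a signal peptide. Of the 7 tested members, S100a1 and S100a13 had the largest falls against DMSO. They are also the closest pair on the chromosome. In the mouse genome build GRCm38, S100a1 lies on the minus strand (chr3:90511034-90514392) and S100a13 on the plus strand (chr3:90514435-90524581), head to head with 42 bases between the annotated genes. That stretch is shown because both genes start from it. It contains 54.8% G or C, close to the median of 52.4% over the bases upstream of all genes in the table of RefSeq promoter windows. The plus strand of GRCm38, chr3:90514393-90514434, reads as follows, with no capitals because no searched motif was in it.
between S100a1 and S100a13: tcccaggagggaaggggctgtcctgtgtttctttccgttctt

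S100a13 had 2329 and 2219 normalized counts in the DMSO libraries, 1128 and 944 in TGF-β, and 766 and 852 in TGF-β+2APB. No library of one group overlapped another group. It fell by 1.13 on the log2 scale (SE 0.12, 2.19-fold) after TGF-β, with an FDR of 0.00111 by edgeR's quasi-likelihood test. The fall was 1.49 (SE 0.12, 2.81-fold) with TGF-β+2APB, at an FDR of 0.000277. Between the treated groups the log2 difference was -0.36 (SE 0.12), which did not pass the test (FDR 0.0966). It was -0.48 (FDR 0.0147) without TGF-β replicate 2 and -0.22 (FDR 0.117) without TGF-β replicate 1.

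S100a1 had 5150 and 4923 normalized counts in DMSO, 3144 and 2488 in TGF-β, and 2643 and 2697 in TGF-β+2APB. Both treated groups lay below DMSO in every library, and the TGF-β+2APB values lay between the pair of TGF-β values. By edgeR's quasi-likelihood test S100a1 fell by 0.84 on the log2 scale (SE 0.12, 1.79-fold, FDR 0.00329) after TGF-β and by 0.92 (SE 0.12, 1.89-fold, FDR 0.00160) with TGF-β+2APB. The log2 difference between TGF-β+2APB and TGF-β was -0.08 (SE 0.12, FDR 0.690). Its sign rested on the TGF-β libraries, at 0.10 without replicate 1 and -0.24 (FDR 0.0211) without replicate 2. Falls of both genes against DMSO passed in all 14 alternative analyses, including those without any 1 library. The hepatocyte markers, with sums of 71590 and 80053 normalized counts in DMSO and at most 730 elsewhere, were likewise highest in both DMSO libraries, and their part in these falls was not tested.

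S100a11 and S100a10, whose dimers bridge annexins A1 and A2 at membranes, lie as a second pair 2.9 Mb beyond the rest of the cluster (chr3:93520488-93526287 and chr3:93555080-93564643, both on the plus strand), and they changed differently. S100a11 had 34764 and 33571 normalized counts in DMSO, 56188 and 44230 in TGF-β, and 37306 and 39199 in TGF-β+2APB. The TGF-β libraries were the highest, and none of the 3 groups overlapped. S100a11 rose by 0.56 on the log2 scale after TGF-β (SE 0.12, 1.47-fold), at an FDR of 0.0149 by edgeR's quasi-likelihood test. This call was lost without DMSO replicate 1 (FDR 0.0853) or without DMSO replicate 2 (FDR 0.101), while the log2 change stayed between 0.38 and 0.72. With TGF-β+2APB the log2 difference from DMSO was 0.16 (SE 0.12, FDR 0.303). It was also 0.16 in a fit of only the 4 libraries compared, where it passed (FDR 0.0226). Without TGF-β replicate 1 it was 0.17 and without TGF-β replicate 2 it was 0.16. The TGF-β libraries enter that difference only through steps that all groups share, such as the estimate of the spread. TGF-β+2APB differed from TGF-β by -0.39 on the log2 scale (SE 0.12, 1.31-fold lower), with an FDR of 0.0805. DESeq2 (FDR 0.0254), scaling by library size alone (FDR 0.0488) and leaving out TGF-β replicate 1 (-0.21, FDR 0.0303) or replicate 2 (-0.55, FDR 0.00287) put that difference past the threshold. A processed copy, S100a11-ps, is annotated on chromosome 12 (73961142 to 73961447), and how reads matching both were counted is not given in the sources used here.

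The 250 bases before the S100a11 start are shown because they hold the only AP-1 motif among the members' promoter windows. RefSeq windows were available for 6 of the 8 genes (7 windows, with 2 for S100a16), not for S100a10 and S100a14. They were searched on both strands for 5 short motifs, and in the members' windows no match overlapped another. The AP-1 motif, TGAGTCA, was present in 4.5% of all 32851 windows and in 1 of the members' 7, where it occurred 136 and 38 bases before the start. In the sequence from GRCm38 (RefSeq, chr3:93520246-93520495, plus strand) capitals mark both copies.
S100a11 upstream: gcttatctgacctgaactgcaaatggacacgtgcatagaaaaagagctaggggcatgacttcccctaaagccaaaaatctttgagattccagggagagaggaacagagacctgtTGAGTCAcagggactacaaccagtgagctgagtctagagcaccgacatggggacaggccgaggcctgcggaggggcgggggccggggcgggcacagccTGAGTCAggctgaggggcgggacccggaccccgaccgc
The same stretch held 3 copies of the GC box, GGGCGG, a motif of 32.7% of all windows and 2 of the members' 7. The SMAD-binding motif CAGAC was found in 3 of the 7 windows (S100a4, S100a6 and 1 of S100a16) and in 42.2% of all. An E-box, CAGGTG, was in 1 of the 7 (S100a16) and in 17.2% of all. These matches describe letters and do not show binding.

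S100a10, which has lost calcium binding and stays in the open form, had 9627 and 9462 normalized counts in DMSO, 11327 and 9861 in TGF-β, and 6288 and 6935 in TGF-β+2APB. The TGF-β+2APB libraries were the lowest, and the lower TGF-β library was close to DMSO. After TGF-β the log2 difference was 0.15 (SE 0.10, FDR 0.268), and it was 0.25 (FDR 0.0396) without TGF-β replicate 2 and 0.05 (FDR 0.547) without TGF-β replicate 1. With TGF-β+2APB S100a10 fell by 0.53 on the log2 scale against DMSO (SE 0.10, 1.44-fold, FDR 0.00606 by edgeR's quasi-likelihood test). Against TGF-β alone it fell by 0.68 (SE 0.10, 1.60-fold, FDR 0.0110). The first fall missed the threshold without DMSO replicate 1 (FDR 0.0521) or TGF-β+2APB replicate 1 (FDR 0.0580), and the second without TGF-β+2APB replicate 1 (FDR 0.0710).

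S100a4, which binds non-muscle myosin and is abundant in fibroblasts and macrophages, had the least even replicates. It had 458 and 403 normalized counts in DMSO, 469 and 380 in TGF-β, and 511 and 1503 in TGF-β+2APB. DMSO and TGF-β overlapped, both TGF-β+2APB values lay above them, and replicate 2 of TGF-β+2APB was about 3 times as high as replicate 1. The gap between the TGF-β+2APB replicates, 1.56 on the log2 scale, was at percentile 97.0 of all genes tested. Against DMSO the log2 difference of TGF-β was -0.02 (SE 0.48, FDR 0.980). TGF-β+2APB had log2 differences of 1.23 (SE 0.48, FDR 0.0796) from DMSO and 1.25 (SE 0.48, FDR 0.137) from TGF-β by edgeR's quasi-likelihood test, and DESeq2 called both (FDR 0.0249 and 0.0427). Without TGF-β+2APB replicate 2 they were 0.27 (FDR 0.363) and 0.26 (FDR 0.526). Without TGF-β+2APB replicate 1 they were 1.80 (FDR 0.00195) and 1.79 (FDR 0.0140), so that 1 library decides both values.

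Markers of leukocytes, among which macrophages express S100a4 strongly, were high in the same library. Lyz2, the lysozyme of macrophages, had 3591 and 1116 normalized counts in DMSO, 789 and 189 in TGF-β, and 156 and 28668 in TGF-β+2APB. Itgam, an integrin chain of myeloid cells, had 11.9 normalized counts in TGF-β+2APB replicate 1 and 1004 in replicate 2, and Csf1r, Ptprc and Cd68 had 168, 35.6 and 119 in the first and 969, 742 and 620 in the second. All 6 leukocyte markers in the table were higher in TGF-β+2APB replicate 2 than in replicate 1, Cd14 least (3409 and 5455), and Adgre1 had no entry. The order of S100a4 did not follow them everywhere: DMSO replicate 1, with the second highest Lyz2, had 458 normalized counts of S100a4 and TGF-β+2APB replicate 1, with the lowest Lyz2, had 511. The part of these markers in the S100a4 values was not tested.

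**Figure D3:**
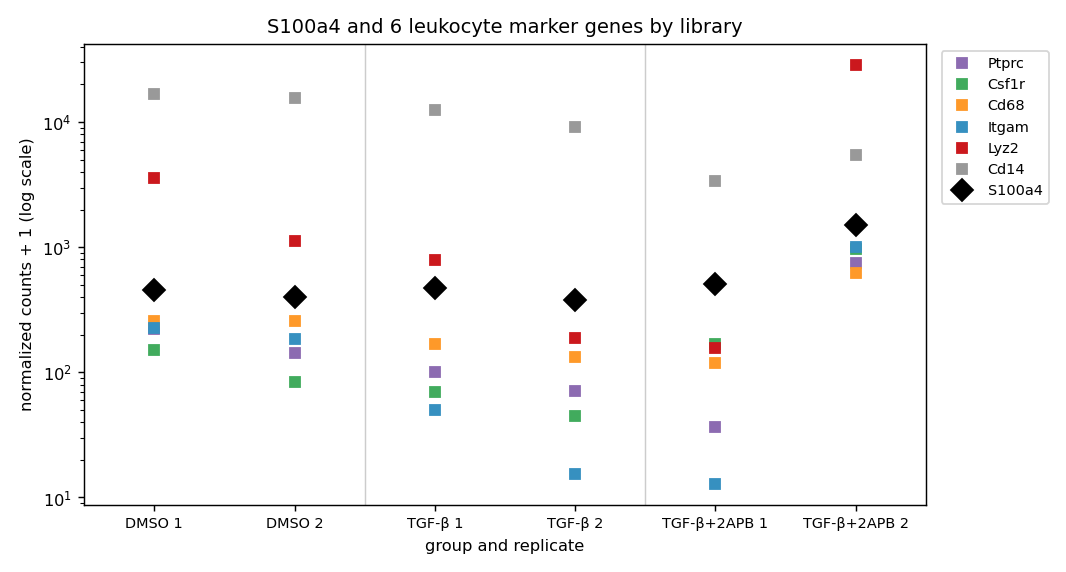
Normalized counts plus 1 (vertical log axis) of S100a4 (black diamonds) and of 6 leukocyte markers (coloured squares) in the 6 libraries. S100a4 lies between 380 and 511 normalized counts in 5 libraries and at 1503 in TGF-β+2APB replicate 2, where Lyz2 reaches 28668 and all markers but Cd14 exceed their levels in every other library.

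The S100a4 gene (chr3:90603771-90606045, plus strand, GRCm38) overlaps the annotated span of Gm42674 on the same strand. How reads in the shared part were counted is not given in the sources used here. The upstream bases of S100a4 are shown because, among the members' windows, only they held a TATA box, TATAAA. Of all windows, 12.4% hold it. Capitals mark it, 31 bases before the start, in GRCm38 chr3:90603520-90603769 (RefSeq, plus strand).
S100a4 upstream: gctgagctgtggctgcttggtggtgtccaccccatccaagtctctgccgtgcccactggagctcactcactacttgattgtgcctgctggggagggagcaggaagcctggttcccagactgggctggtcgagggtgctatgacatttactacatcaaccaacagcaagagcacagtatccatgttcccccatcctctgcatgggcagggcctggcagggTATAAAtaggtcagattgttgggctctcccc

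S100a6, which binds annexins and the ubiquitin ligase subunit known as calcyclin-binding protein, was the most abundant member and did not pass the test in any comparison. It had 132005 and 128066 normalized counts in DMSO, 120835 and 92839 in TGF-β, and 117228 and 126800 in TGF-β+2APB. Both treated groups lay below DMSO, and they overlapped each other. The log2 differences were -0.28 (SE 0.13, FDR 0.138) after TGF-β, -0.09 (SE 0.13, FDR 0.588) with TGF-β+2APB, and 0.19 (SE 0.13, FDR 0.359) between the treated groups. The first and the last passed without TGF-β replicate 1 (-0.48, FDR 0.00157, and 0.40, FDR 0.00858), and were -0.11 (FDR 0.180) and 0.01 (FDR 0.865) without TGF-β replicate 2. S100a6 made up 69.9% and 70.0% of the counts of the 8 genes in DMSO, 61.2% and 60.3% in TGF-β, and 69.6% and 69.7% in TGF-β+2APB. In that share the TGF-β replicates were close to each other and below the other 4 libraries.

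S100a16, a widely expressed member that binds calcium weakly, had 4458 and 4279 normalized counts in DMSO, 4217 and 3169 in TGF-β, and 3686 and 3903 in TGF-β+2APB. Its log2 differences from DMSO were -0.24 (SE 0.14, FDR 0.220) and -0.20 (SE 0.14, FDR 0.271), and the treated groups differed by 0.04 (SE 0.14, FDR 0.871). The call depended on the libraries fitted. The TGF-β difference passed without TGF-β replicate 1 (-0.46, FDR 0.00236) and was -0.05 (FDR 0.505) without TGF-β replicate 2. The difference of TGF-β+2APB from DMSO stayed at -0.20 without either TGF-β replicate. It was also -0.20 in a fit of the 4 libraries compared, where it passed (FDR 0.0148). The TGF-β libraries enter that difference only through steps that all groups share, such as the estimate of the spread. The third difference was 0.26 (FDR 0.0265) without TGF-β replicate 1 and -0.15 (FDR 0.0993) without replicate 2.

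S100a14, a member of stratified and glandular epithelia, was close to the limit of detection, with 28 and 26 raw counts in DMSO, 6 and 6 in TGF-β, and 12 and 18 in TGF-β+2APB. The 3 groups did not overlap. Its mean of 16.01 normalized counts kept it out of the test. In a fit with no minimum, over 18512 entries, its log2 difference from DMSO was -2.15 (SE 0.47, FDR 0.0202 by edgeR's quasi-likelihood test) after TGF-β and -0.87 (SE 0.43, FDR 0.181) with TGF-β+2APB. Between the treated groups it was 1.28 (SE 0.47, FDR 0.164).

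The replicates of TGF-β differed from each other in most members. In that group 7 of the 8 genes were lower in replicate 2, by -0.20 (S100a10) to -0.41 (S100a16) on the log2 scale, where the median of all genes tested was -0.08. Genes with transcripts as short as those of the members (498 to 915 bases, 669 genes) had a median of -0.18, and longer genes -0.08. S100a14 was the exception, at 0.08. All 8 were lower in replicate 2 of DMSO by smaller amounts and 0 were lower in replicate 2 of TGF-β+2APB. Genes as short as the members had medians of -0.05 in DMSO and 0.04 in TGF-β+2APB, and longer genes -0.01 and -0.005. Among the 7 tested members the values of DMSO and TGF-β did not overlap in 6, where 72.5% of all genes tested did not. Values of DMSO and TGF-β+2APB did not overlap in 7, where 86% of all did not, and those of the treated groups in 4, where 58% of all did not.

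Other S100 genes were measured from a list of 7, of which 6 had an entry and 4 could be tested. S100b, a member known from glia and melanocytes, averaged 277 normalized counts in DMSO, 25.05 in TGF-β and 9.88 in TGF-β+2APB. S100g, the calcium carrier calbindin-D9k, averaged 160, 6.03 and 7.90. Both fell after TGF-β and with TGF-β+2APB. The log2 differences of S100b from DMSO were -3.46 (SE 0.30, FDR 0.000576 by edgeR's quasi-likelihood test) and -4.79 (SE 0.32, FDR 0.000159), and those of S100g were -4.70 (SE 0.55, FDR 0.00171) and -4.32 (SE 0.54, FDR 0.00135). S100a3, a member of hair follicles, averaged 127, 206 and 373 and rose in all 3 comparisons (log2 differences of 0.70, 1.56 and 0.86, with FDR values of 0.0441, 0.00196 and 0.0444). S100a7a averaged 82.7, 57.2 and 142 and rose against DMSO with TGF-β+2APB (0.78, FDR 0.0481) and against TGF-β (1.31, FDR 0.0253). In all, 1 of these 4 rose and 2 fell after TGF-β, 2 rose and 2 fell with TGF-β+2APB, and 2 rose and 1 fell between the treated groups, beside 41.5%, 52.8% and 17.5% of all genes tested. With scaling by library size alone 1 rose and 2 fell with TGF-β+2APB against DMSO.

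Of 22 genes whose proteins are known to bind one of the members, 18 were tested. After TGF-β 6 rose and 2 fell, against DMSO 6 rose and 4 fell with TGF-β+2APB, and between the treated groups 2 rose and 3 fell. That makes 8, 10 and 5 of 18 genes, beside 41.5%, 52.8% and 17.5% of all genes tested. Fgf1, a growth factor that leaves cells together with S100a13, averaged 10515 normalized counts in DMSO, 853 in TGF-β and 253 in TGF-β+2APB. It fell in all 3 comparisons, with log2 differences of -3.62 (SE 0.10), -5.38 (SE 0.11) and -1.75 (SE 0.10, FDR 0.00234). Syt1, a calcium sensor of the same export complex, averaged 62.3, 19.0 and 0.987. After TGF-β its log2 difference of -1.70 (SE 0.56, FDR 0.0548 by edgeR's quasi-likelihood test) did not pass. It fell with TGF-β+2APB, by log2 differences of -5.81 from DMSO (SE 0.78, FDR 0.00182) and -4.11 from TGF-β (SE 0.81, FDR 0.0242). Those sizes rest on 0 and 2 raw counts in the TGF-β+2APB libraries. Dlc1, a tumour suppressor that S100a10 binds, rose from 255 to 3394 and 7802 normalized counts, by 3.73 (SE 0.15), 4.94 (SE 0.16) and 1.20 (SE 0.13, FDR 0.00611). Myh9, the non-muscle myosin heavy chain bound by S100a4, rose after TGF-β by 1.26 (SE 0.07), and Anxa11, an annexin bound by S100a6, fell by 1.46 (SE 0.18, FDR 0.00180) after TGF-β and by 1.79 (SE 0.18) with TGF-β+2APB. Anxa6 was lower with 2APB than with TGF-β alone, by 0.50 (SE 0.13, FDR 0.0489).

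Annexins A2 and A1, named here after their values were seen because they are the main partners of S100a10 and S100a11, did not pass the test. Anxa2 averaged 82746 normalized counts in DMSO, 80237 in TGF-β and 68182 in TGF-β+2APB. Its log2 differences were -0.04 (FDR 0.758) after TGF-β, -0.28 (SE 0.10, FDR 0.0672) with TGF-β+2APB and -0.23 (SE 0.10, FDR 0.178) between the treated groups. Anxa1 averaged 22958, 24121 and 18247, and its log2 differences were 0.07 (FDR 0.658), -0.33 (SE 0.12, FDR 0.0577) and -0.40 (SE 0.12, FDR 0.0690). In both genes, as in S100a10, the TGF-β+2APB mean was the lowest of the 3.

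Calcium sensors and EF-hand proteins outside the S100 family gave a wider view, with 24 of 28 listed genes tested. After TGF-β 9 rose and 4 fell, with TGF-β+2APB 8 rose and 6 fell against DMSO, and between the treated groups 1 changed. That makes 13, 14 and 1 of 24, beside the same shares of all genes. Tesc (tescalcin) rose from 20.2 normalized counts in DMSO to 1154 in TGF-β and 1162 in TGF-β+2APB, by 5.83 (SE 0.17) and 5.84 (SE 0.17) on the log2 scale. Calml4, a calmodulin-like protein, had log2 differences of -3.52 (SE 0.23) and -3.92 (SE 0.24) from DMSO, both falls by the test. Rcn2, a reticulocalbin of the secretory pathway, rose by 1.003 (SE 0.09) and 1.19 (SE 0.09), and Calm3, 1 of the calmodulin genes, fell by 0.75 (SE 0.11, FDR 0.00380) and by 0.97 (SE 0.11). That gene was Hpcal1, a neuronal calcium sensor, which was lower with TGF-β+2APB than with TGF-β, at a log2 difference of -0.62 (SE 0.10, FDR 0.0129).

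The 6 members of the first cluster lie within 113148 bases, and neighbours there did not share their direction. S100a14 (chr3:90526856-90528837), S100a16 (chr3:90537254-90543151) and S100a6 (chr3:90612882-90624181) are all on the plus strand of GRCm38. Beside the 2 falls of S100a1 and S100a13 after TGF-β, the 11 tested genes between these members or nearest to them on each side held 6 rises and 1 fall, and with TGF-β+2APB 8 rises and 1 fall against DMSO and 2 rises against TGF-β. The rises close to the members were those of Ilf2, Snapin and S100a3. The other 3 rises (Prr9, Lelp1 and Lor) and the fall (Sprr2b) were the largest changes after TGF-β and belong to genes of the epidermal differentiation region that lie 1569 to 1806 kb from the lower end of S100a1, far outside the cluster. On either side of S100a11 and S100a10, the 10 nearest tested genes, at -1037 to -757 kb and 790 to 923 kb from the lower end of S100a11, held 4 rises and 4 falls after TGF-β, 4 rises and 5 falls with TGF-β+2APB against DMSO, and 2 rises and 2 falls between the treated groups. Over all genes tested the shares of changes were 41.5%, 52.8% and 17.5%. Among the largest changes there were rises of Lce1f, Lce1h and Lce1g, late cornified envelope genes.

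**Figure D4:**
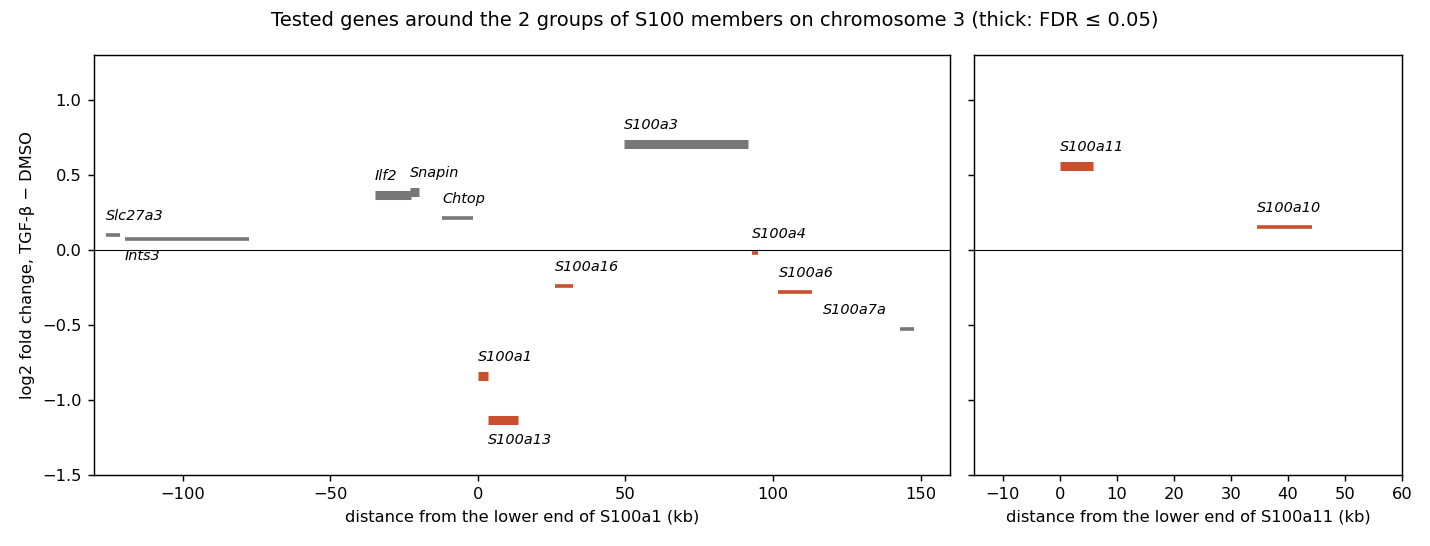
Fitted log2 fold changes after TGF-β (vertical axis) of tested genes along chromosome 3 (horizontal axes, kb from the lower end of S100a1 at left and of S100a11 at right, GRCm38). Orange bars are S100 members, grey bars other genes, bars span each gene, and thick bars have an FDR of 0.05 or less; S100a1 and S100a13 fell by 0.84 and 1.13 beside rises of Ilf2, Snapin and S100a3, and genes beyond the axes are not drawn.

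The profiles of the members over the 6 libraries were compared by Pearson's r of log2 normalized counts, as a description in which all points share the same libraries and group changes. S100a1 and S100a13 were the most alike pair of members (r = 0.98 over 6 libraries), followed by S100a6 and S100a16 (r = 0.92). S100a13 was most like Slc12a7, a potassium-chloride cotransporter (r = 0.99995), and Mks1, a ciliary protein, and S100a1 most like Sdhd, a subunit of succinate dehydrogenase, and Calcrl, a peptide receptor. S100a10 was most like Chst4 and the tetraspanin Cd9, and S100a11 like Pofut1 and Minpp1. S100a6 was most like Krtcap2 and Trib1, and S100a16 like Galnt10 and Mtss1l. S100a4 was most like Nrros, a gene of macrophages and microglia, and Tbc1d9. With 6 libraries such values were common, with 70 genes at r above 0.9 for S100a4 and 2308 for S100a13.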

How the data were processed

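Gene counts of 6 mouse NMuMG libraries were analysed, 2 replicates each of DMSO, TGF-β and TGF-β+2APB, grouped by the labels. Single-end reads were checked with FastQC 0.11.2, aligned with TopHat2 2.0.13 and assigned to genes with featureCounts by the authors, who deposited raw counts without normalization. The methods name the human build hg19, the submitters' processing notes mm10, and the symbols are mouse symbols. Annotation, strand setting and treatment of reads with several alignments are not given in the sources used here. The results text gives a treatment of 24 h, whereas the methods place 2APB before TGF-β. Every value was even, and 25 names had been turned into dates. These entries stayed in the fits.

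The fits used edgeR 4.0.16 and limma 3.58.1 in R 4.3.3. Libraries were scaled by TMM, genes averaging 20 normalized counts or more were kept, and a single quasi-likelihood model held all 3 groups (FDR of 0.05 or less). The SE of a log2 fold change was taken as its size over the square root of F. Correlations used a prior count of 1. P-values measure only the spread between these replicates. The procedure was also run on simulated counts in which few genes changed. That run does not test it where as many genes change as here. DESeq2 1.42.0, RLE factors, library size only, other filters, the replicate block, fits of 4 libraries, halved counts, an FDR of 0.01 and each library left out were alternatives. A block that exchanges the replicates of TGF-β+2APB was chosen after seeing the data.

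Positions and transcript lengths came from GENCODE M21 (GRCm38), with lengths for 12117 of 13353 tested genes (90.74%), and upstream sequences from RefSeq (GRCm38.p6). The 2 annotations place some gene starts differently. Members and lists were chosen with earlier results of these data known. From the lists of S100 genes, partners, EF-hand genes and neighbours, the text names up to 4 called genes with the largest change per comparison, and for each member the 2 genes of highest r. A result within this rule is not reported here. S100a8 and S100a9 were left out by the choice of genes. Tables and plots were made with pandas 2.3.3 and matplotlib 3.10.9 in Python 3.11.15.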

Additional observations from a re-analysis of the deposited data

How the results depend on the processing

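Over the log2 changes of the 7 tested members, 260 values under an alternative kept direction and side of the threshold, 21 passed it newly, 5 missed it and 8 turned sign. All 8 sign changes were of differences that had not passed: S100a4 after TGF-β was 0.00686 in the fit of 4 libraries and without TGF-β+2APB replicate 1 or replicate 2, 0.08 without DMSO replicate 1 and 0.13 without TGF-β replicate 2, within a leave-one-out range of -0.17 to 0.13. Between the treated groups S100a1 was 0.10 without TGF-β replicate 1 (range -0.24 to 0.10), and S100a16 was -0.15 without TGF-β replicate 2 and -0.01 without TGF-β+2APB replicate 2 (range -0.15 to 0.26). The cause was not tested.

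Members called ranged from 2 to 5 after TGF-β, 2 to 5 for TGF-β+2APB against DMSO and 1 to 4 between the treated groups when 1 library was left out, and the lone sample was then assumed to vary like the other groups. The fit of 4 libraries called 5 of 8 for TGF-β+2APB against DMSO, where S100a14 passed the minimum. Between the treated groups DESeq2 called 3, library size alone 2, and an FDR of 0.01 called 0 (edgeR, with 4 members at an unadjusted p under 0.05). Over all genes, leaving out 1 library gave 2753 to 7641, 4355 to 9006 and 834 to 5405 calls in these comparisons, against 5548, 7044 and 2334. An FDR of 0.01 gave 3369 after TGF-β and 601 between the treated groups, where DESeq2 gave 3698 and the 4 libraries alone 860. DESeq2 called 4 EF-hand genes there in place of 1.

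Deviations of same-numbered replicates correlated at r = 0.15 (DMSO and TGF-β), -0.46 (DMSO and TGF-β+2APB) and -0.26 (both treated groups) over 13353 genes. Their signs differed, so these values do not decide whether replicate numbers pair the samples. With the replicate block 3, 3 and 1 members were called, as without it, and 4737, 6358 and 1342 genes. With the TGF-β+2APB replicates exchanged, a block chosen after seeing the data gave 4 and 1 members and 7232 and 2465 genes for TGF-β+2APB against DMSO and TGF-β. Calls of S100a6 and S100a16 depended on the libraries fitted, and S100a14, at 6 to 28 raw counts per library, was below the minimum in the fit of all 6 libraries.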
